A study of Mus musculus with 12 samples.

Results

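The collagen chain genes were the 44 gene symbols, of 24421 in the deposited tables, that begin with Col, a number, the letter a and a second number. They were measured by RNA-seq in 12 libraries of sorted heart muscle cells of CD1 mice at postnatal day 1. Glut1 transgenic hearts, which carried aMHC-hGLUT1tg with aMHC-Cre tg and the R26+/YFP reporter, gave 4 libraries of Tnnt2low and 4 of Tnnt2high cells, and WT hearts gave 2 libraries of each. The sample labels name the cells by their Mitotracker signal, and Mitotracker high was read as Tnnt2low and Mitotracker low as Tnnt2high, the pairing of the paper. The labels call the reference animals wild type only, while the methods give them as carriers of the same Cre driver and reporter, so that both genotypes were sorted by YFP. The αMHC (Myh6) promoter drives the human GLUT1 transgene and the Cre in heart muscle cells, and the sort was therefore meant to hold cells of that lineage. Both populations of a Glut1 transgenic replicate came from the same numbered heart. The labels of both WT replicates begin with the same heart number, so n = 2 counts WT libraries, not hearts known to be separate. The p-values there rest on a spread estimated within the groups of all 12 libraries together, not on WT libraries alone.

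Collagen chains wind around each other into a stiff helix, and the class of a chain sets what it builds. Fibrillar chains form the cable-like fibrils of the interstitium and are made in the heart mainly by fibroblasts, whereas type IV chains form the sheet of the basement membrane that wraps each cardiomyocyte, endothelial cell and mural cell. The chains were therefore grouped by class, and fibrillar chains were set against type IV chains and beside markers of the other cells that a sort of heart muscle can carry.

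By class, the 44 genes were 11 fibrillar chains, 6 type IV chains, 6 type VI chains, 9 FACIT chains, which sit on the surface of fibrils, 4 transmembrane chains, 3 short-chain network chains, both multiplexins (Col15a1 and Col18a1, found where basement membranes meet the fibrils), the anchoring fibril chain Col7a1, and Col26a1 and Col28a1. A filter on low counts passed 29 of the 44 chains and 12252 of all genes. The 15 chains below it reached at most 13 reads in any library, and Col19a1, Col6a4 and Col6a5 had 0 reads in all 12. The cartilage chains Col2a1, Col9a1, Col9a2 and Col9a3 and the short-chain network chains Col8a1, Col8a2 and Col10a1 were among those below the filter. Values are given in every library for the 18 chains that averaged at least 10 CPM (the count of a gene scaled to the reads in genes of its library, after TMM normalisation) or passed the test in a comparison.

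Type IV genes lie in head-to-head pairs in the mouse genome, and the windows around the starts of the highest pair are shown here beside those of Col1a2 and Col3a1, the highest fibrillar chains for which a window was at hand. Each window runs from 250 bases before to 50 bases after the start of the gene, on the strand of the gene, in RefSeq (GRCm38.p6). Capitals mark the CCAAT box, which reads ATTGG on the other strand. They also mark the GC box GGGCGG, which reads CCGCCC on the other strand, and the TATA letters TATAAA, which read TTTATA on the other strand. No match overlapped another in these windows. The windows are Col4a1 (chr8:11312777-11313076, minus strand), Col4a2 (chr8:11312555-11312854, plus strand), Col1a2 (chr6:4505368-4505667, plus strand) and Col3a1 (chr1:45311288-45311587, plus strand).
Col4a1: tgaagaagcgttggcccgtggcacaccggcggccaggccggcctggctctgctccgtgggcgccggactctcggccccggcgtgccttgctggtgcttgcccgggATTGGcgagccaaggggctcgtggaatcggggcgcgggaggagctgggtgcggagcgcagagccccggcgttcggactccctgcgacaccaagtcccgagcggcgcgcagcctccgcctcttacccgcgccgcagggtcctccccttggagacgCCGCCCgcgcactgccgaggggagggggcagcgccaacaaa
Col4a2: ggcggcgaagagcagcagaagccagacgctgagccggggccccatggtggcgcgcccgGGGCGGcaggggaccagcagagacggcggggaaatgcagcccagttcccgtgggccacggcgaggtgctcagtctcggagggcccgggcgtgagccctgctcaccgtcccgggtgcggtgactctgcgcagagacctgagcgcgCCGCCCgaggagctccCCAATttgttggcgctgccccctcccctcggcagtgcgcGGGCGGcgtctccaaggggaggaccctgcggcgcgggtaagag
Col1a2: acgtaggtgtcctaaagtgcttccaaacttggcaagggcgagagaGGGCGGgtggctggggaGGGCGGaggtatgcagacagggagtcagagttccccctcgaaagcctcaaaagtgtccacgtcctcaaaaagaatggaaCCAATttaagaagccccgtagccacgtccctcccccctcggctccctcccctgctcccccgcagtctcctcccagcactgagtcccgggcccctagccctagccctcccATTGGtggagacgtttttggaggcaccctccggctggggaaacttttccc
Col3a1: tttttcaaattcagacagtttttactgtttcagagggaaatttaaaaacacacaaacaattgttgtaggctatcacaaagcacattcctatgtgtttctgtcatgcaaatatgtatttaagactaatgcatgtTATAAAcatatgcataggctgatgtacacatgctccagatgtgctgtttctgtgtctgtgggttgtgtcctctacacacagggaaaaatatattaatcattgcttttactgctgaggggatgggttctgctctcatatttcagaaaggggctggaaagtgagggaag

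The starts of Col4a1 and Col4a2 were 21 bases apart on opposite strands, and their windows shared 78 bases. The starts of Col4a6 and Col4a5 on chromosome X, also head to head, were 1343 bases apart and their windows shared no base. A window was at hand for 35 of the 44 chains, in 38 windows, and Col1a1 had none. The GC box was in 60.5% of these windows, against 35.7% of all 32851 windows of this length. CCAAT was in 34.2% of collagen windows, against 37.4% of all windows, and the TATA letters in 13.2%, against 13.6%. A match is a description of the letters only.

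The libraries held 7301762 to 9815069 reads in genes in Glut1 transgenic Tnnt2low cells, 4065306 to 5241475 in Glut1 transgenic Tnnt2high cells, 6399746 to 6803962 in WT Tnnt2low cells and 4975085 to 7483520 in WT Tnnt2high cells. Tnnt2 itself fell in Glut1 transgenic Tnnt2low cells (13900, 13140, 12660 and 13980 CPM), against Tnnt2high cells (18730, 20830, 16090 and 16180 CPM), with a log2 fold change of -0.42 ± 0.09 (SE; edgeR's quasi-likelihood test, adjusted p = 0.00723). In WT cells Tnnt2 had 15740 and 16730 CPM in Tnnt2low cells, against 16250 and 17200 CPM in Tnnt2high cells. The summed level of 8 cardiomyocyte markers was 121900 to 154700 CPM over all 12 libraries, so heart muscle transcripts were abundant in each of them. The members of this list were split in Glut1 transgenic Tnnt2low cells. Of the 8, 2 fell (Tnnt2 and Tnni3) and 1 rose (Ryr2), beside 8.33% of all tested genes that fell and 8.42% that rose. Their median log2 fold change was -0.05. Reads outside exons per read in a gene were 0.886 to 1.07 in Glut1 transgenic Tnnt2low libraries, against 2.26 to 2.63 in Glut1 transgenic Tnnt2high libraries, and 1.13 to 1.5 in WT Tnnt2low libraries, against 1.51 to 1.83 in WT Tnnt2high libraries. This measure therefore separated the populations without overlap in both genotypes, and its part in the differences of the chains was not tested.

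Type IV chains made up most of the collagen reads in every library. They took 88.6% to 90.6% of all chain reads in Glut1 transgenic Tnnt2low libraries, against 55.5% to 85.5% in Glut1 transgenic Tnnt2high libraries. In WT cells they took 84.7% and 87.4% in Tnnt2low libraries, against 73.9% and 87.0% in Tnnt2high libraries. Fibrillar chains took 2.60% to 4.93% in Glut1 transgenic Tnnt2low libraries, against 6.47% to 31.9% in Glut1 transgenic Tnnt2high libraries, and 5.25% and 7.03% in WT Tnnt2low libraries, against 4.97% and 15.8% in WT Tnnt2high libraries. The Glut1 transgenic populations did not overlap in either share, while the WT populations overlapped in both.

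**Figure D1:**
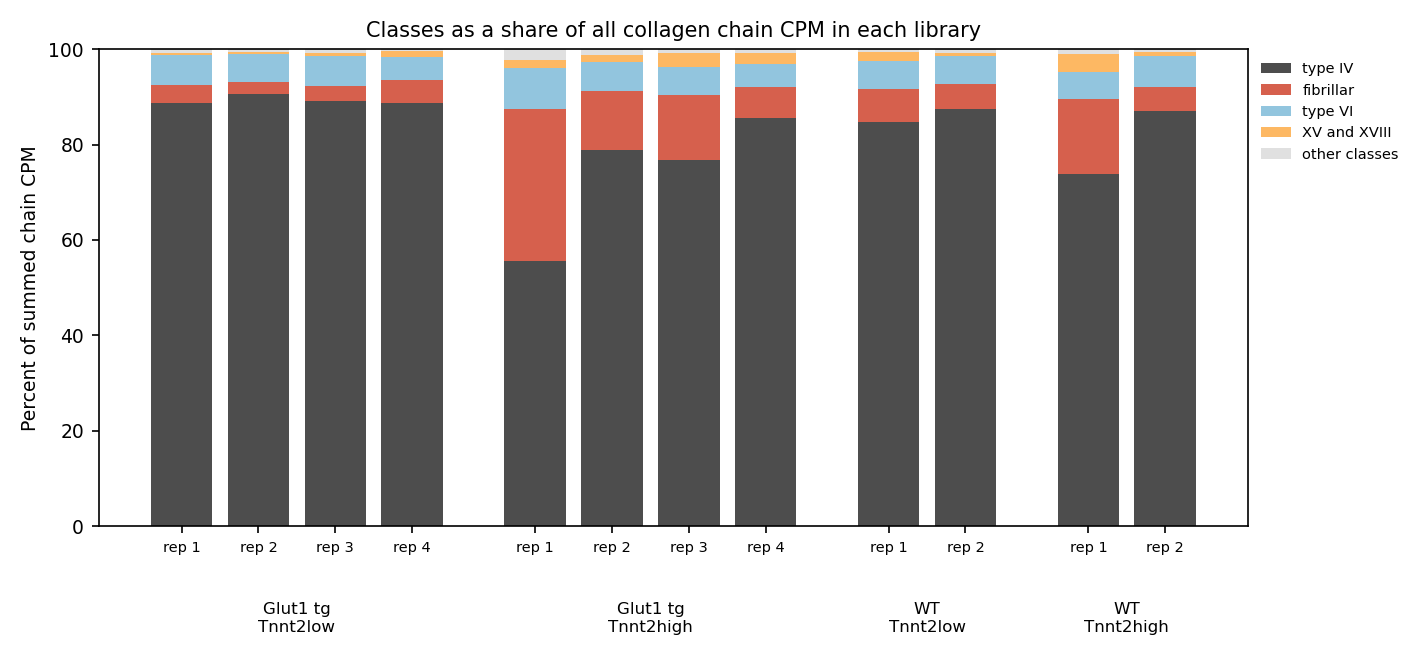
Classes of collagen chains as a percent of the summed CPM of all 44 chains, 1 bar per library, grouped by genotype and population. Type IV chains fill 55.5% to 90.6% of each bar, and the fibrillar part is widest, at 31.9%, in Glut1 transgenic Tnnt2high replicate 1.

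Per kilobase of exons, so that genes of unequal length can be compared, the highest chains were Col4a1 and Col4a2 with mean levels of 127 and 125 CPM per kilobase over the 12 libraries, followed by Col4a5 with 33.9 and Col6a2 with 18.0. The highest fibrillar chains were Col3a1 with 13.6 and Col1a1 with 12.3 CPM per kilobase. Col1a2 had a mean level of 6.499 CPM per kilobase, Col6a1 4.62, Col15a1 4.02, Col5a2 3.46, Col5a1 3.16 and Col18a1 3.005. The other chains with values in every library had mean levels of 0.289 (Col11a1) to 2.32 (Col4a6) CPM per kilobase.

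Between the populations of Glut1 transgenic hearts, 12 chains fell and 1 rose in Tnnt2low cells. The 12 were Col1a1, Col1a2, Col3a1, Col5a1, Col5a2 and Col11a1 of the fibrillar chains, Col12a1 and Col14a1 of the FACIT chains, Col6a1, Col6a3 and Col6a6 of the type VI chains, and the multiplexin Col15a1. The chain that rose was Col4a6. Of all 12252 genes tested, 8.33% fell and 8.42% rose in this comparison. The median log2 fold change of the 29 tested chains was -1.52, beside -0.01 for all tested genes, and 16 tested chains passed in neither direction. DESeq2 also called 12 chains lower and 1 higher, beside 2520 genes called in either direction among the 24421 it fitted. It gave no adjusted p to 23 of the 44 chains, so 24421 is not the number of genes it tested.

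The summed fibrillar level showed the same order in each of the 4 Glut1 transgenic hearts. It was 73.7, 54.7, 65.7 and 106.7 CPM in Tnnt2low cells, against 900.4, 254, 416 and 151 CPM in Tnnt2high cells of the same hearts. Within a heart, the Tnnt2low level was thus 0.0819, 0.215, 0.158 and 0.708 times the Tnnt2high level. The hearts differed widely in this ratio, with replicate 1 at the low end and replicate 4 at the high end. The summed type IV level was 1778, 1902, 1771 and 1917 CPM in Tnnt2low cells, against 1570, 1642, 2336 and 1993 CPM in Tnnt2high cells, which are ratios of 1.13, 1.16, 0.758 and 0.962. It was higher in Tnnt2low cells of replicates 1 and 2 and lower in those of replicates 3 and 4. The log2 ratio of fibrillar to type IV chains was -4.59, -5.12, -4.75 and -4.17 in Tnnt2low cells, against -0.80, -2.69, -2.49 and -3.73 in Tnnt2high cells, a difference of -2.23 between the means. In bulk samples, fewer cells of a type and less RNA per cell cannot be told apart.

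**Figure D2:**
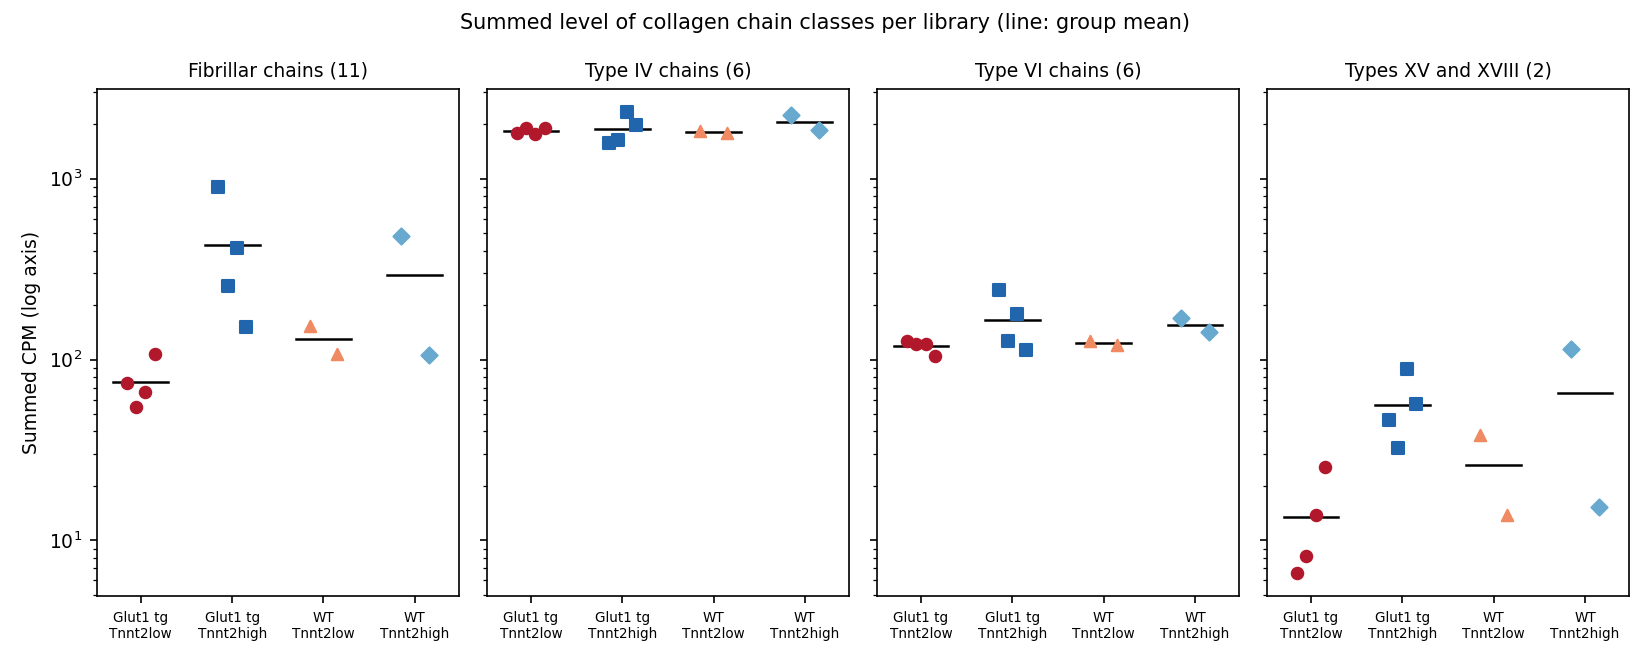
Summed CPM (log axis) of the fibrillar, type IV, type VI and multiplexin chains, 1 point per library, with a line at the mean of each group. The fibrillar sum of the 4 Glut1 transgenic Tnnt2low libraries sits between 54.7 and 106.7 CPM, below all 4 Glut1 transgenic Tnnt2high libraries, while the type IV sum stays between 1570 and 2336 CPM in all 12.

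The chains of type I collagen, the main load-bearing fibril of the heart, are Col1a1 (chr11:94936224-94953042 in GENCODE vM21, mm10) and Col1a2 (chr6:4504814-4541544). Col1a1 had 16.7, 15.04, 11.7 and 33.8 CPM in Glut1 transgenic Tnnt2low cells, against 279, 82.4, 121 and 49.8 CPM in Tnnt2high cells. All 4 Tnnt2low libraries lay below all 4 Tnnt2high libraries. The log2 fold change was -2.79 ± 0.55 (SE; edgeR's quasi-likelihood test, adjusted p = 0.00461), a 6.91-fold lower level in Tnnt2low cells.
In WT cells Col1a1 had 46.2 and 37.1 CPM in Tnnt2low cells, against 154 and 29.6 CPM in Tnnt2high cells, and the groups overlapped.
Col1a2 had 9.18, 7.86, 10.2 and 10.9 CPM in Glut1 transgenic Tnnt2low cells, against 137, 35.3, 67.5 and 19.0 CPM in Tnnt2high cells. These groups did not overlap either, and the log2 fold change was -2.77 ± 0.53 (SE; edgeR's quasi-likelihood test, adjusted p = 0.00422). In WT cells Col1a2 had 19.5 and 12.6 CPM in Tnnt2low cells, against 71.7 and 16.3 CPM in Tnnt2high cells. The ratio of Col1a1 to Col1a2, per kilobase, was 1.04 to 2.80 in Glut1 transgenic Tnnt2low libraries, against 1.62 to 2.37 in Tnnt2high libraries.

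Col3a1 (chr1:45311538-45349706), the chain of type III collagen, which is found with type I in the interstitium, had 24.5, 11.5, 21.8 and 31.3 CPM in Glut1 transgenic Tnnt2low cells, against 313, 86.8, 119 and 40.6 CPM in Tnnt2high cells. The populations did not overlap, and the log2 fold change was -2.65 ± 0.56 (SE; edgeR's quasi-likelihood test, adjusted p = 0.00668). In WT hearts the values were 38.4 and 33.8 CPM in Tnnt2low cells, against 157 and 30.8 CPM in Tnnt2high cells. Of its exon bases, 1.44% overlap a miRNA gene on the same strand.

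Col5a1 and Col5a2 encode chains of type V collagen, which starts fibrils and sets their width. Col5a1 had 6.60, 4.71, 6.85 and 11.8 CPM in Glut1 transgenic Tnnt2low cells, against 96.3, 29.0, 49.4 and 19.5 CPM in Tnnt2high cells. Its log2 fold change was -2.70 ± 0.56 (SE; edgeR's quasi-likelihood test, adjusted p = 0.00607), with no overlap between the populations. Col5a2 had 14.2, 12.5, 12.2 and 14.7 CPM in Glut1 transgenic Tnnt2low cells, against 58.5, 16.4, 49.4 and 19.0 CPM in Tnnt2high cells. The Tnnt2low libraries were again the lower ones, and the log2 fold change was -1.42 ± 0.39 (SE; edgeR's quasi-likelihood test, adjusted p = 0.0242).
In WT Tnnt2low cells Col5a1 had 24.3 and 9.72 CPM, against 51.3 and 9.02 CPM in WT Tnnt2high cells. Col5a2 had 19.1 and 10.9 CPM in WT Tnnt2low cells, against 35.0 and 13.2 CPM in WT Tnnt2high cells. Replicate 1 was the higher library of both WT populations for both chains. Col5a3, the other type V chain, had 1 read in 1 of the 4 Glut1 transgenic Tnnt2low libraries and 0 in the others, against 0 to 22 reads in Tnnt2high libraries, and did not pass the test (adjusted p = 0.0638, edgeR's quasi-likelihood test).

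Col11a1, a type XI chain best known from cartilage, had 0.478, 0.224, 0.508 and 1.02 CPM in Glut1 transgenic Tnnt2low cells, against 8.07, 0.274, 9.42 and 0.712 CPM in Tnnt2high cells. Replicates 1 and 3 of Tnnt2high stood high and the other libraries of both populations overlapped. The log2 fold change was -3.03 ± 0.94 (SE; edgeR's quasi-likelihood test, adjusted p = 0.0390). In WT cells it had 1.49 and 1.196 CPM in Tnnt2low cells, against 1.83 and 1.35 CPM in Tnnt2high cells. With the replicate block, Col11a1 and Col12a1 no longer passed (adjusted p = 0.129 and 0.0524, edgeR's quasi-likelihood test), while the multiplexin Col18a1 passed (adjusted p = 0.0112).

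The fibrillar chain Col11a2 had 1.34, 1.80, 1.65 and 1.53 CPM in Glut1 transgenic Tnnt2low cells, against 0.605, 0.821, 0 and 0.237 CPM in Tnnt2high cells. It was the fibrillar chain with the opposite order, with 0 to 18 reads per library, and did not pass the test (log2 fold change 1.88 ± 0.83 SE, adjusted p = 0.135, edgeR's quasi-likelihood test). Col27a1 had a mean level of 1.25 CPM over the 12 libraries, and Col24a1 and Col2a1 were below the filter.

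**Figure D3:**
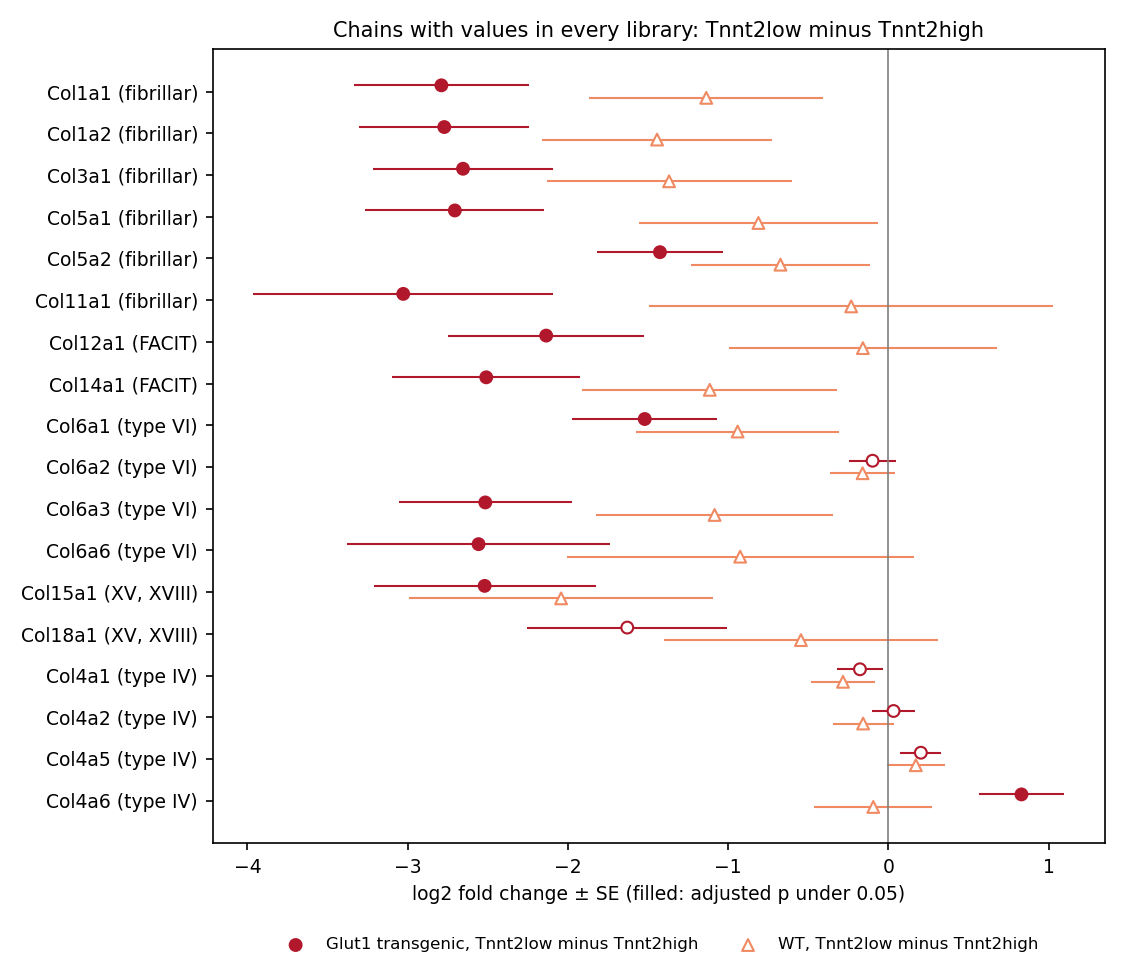
log2 fold change (± SE) of Tnnt2low minus Tnnt2high cells for the 18 chains with values in every library, in Glut1 transgenic hearts (circles, 4 libraries per population) and WT hearts (triangles, 2 per population), with filled points at an adjusted p under 0.05. Fibrillar chains lie between -3.03 and -1.42 in Glut1 transgenic hearts, and the type IV chains between -0.18 and 0.83.

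Col12a1 and Col14a1 encode FACIT chains, which decorate the surface of type I fibrils. Col12a1 had 1.34, 2.69, 1.14 and 1.54 CPM in Glut1 transgenic Tnnt2low cells, against 17.2, 6.57, 3.47 and 2.37 CPM in Tnnt2high cells. The lower level was found in all 4 hearts although the ranges overlapped, and the log2 fold change was -2.14 ± 0.61 (SE; edgeR's quasi-likelihood test, adjusted p = 0.0280). Col14a1 had 1.82, 1.24, 2.28 and 3.07 CPM in Glut1 transgenic Tnnt2low cells, against 26.4, 9.31, 6.20 and 5.70 CPM in Tnnt2high cells. These ranges did not overlap, and the log2 fold change was -2.51 ± 0.59 (SE; edgeR's quasi-likelihood test, adjusted p = 0.0104). In WT cells Col12a1 had 2.83 and 4.49 CPM in Tnnt2low cells, against 5.70 and 2.56 CPM in Tnnt2high cells. Col14a1 had 4.17 and 3.59 CPM in WT Tnnt2low cells, against 14.3 and 2.83 CPM in WT Tnnt2high cells. Both chains thus overlapped between the WT populations.

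Type VI collagen forms beaded filaments next to basement membranes, in which Col6a1 and Col6a2 assemble with Col6a3 or a related chain such as Col6a6. Of the 4 tested chains, 3 fell and Col6a2 did not pass the test. Col6a1 had 8.89, 10.7, 12.4 and 8.57 CPM in Glut1 transgenic Tnnt2low cells, against 54.9, 18.1, 32.2 and 10.7 CPM in Tnnt2high cells, and fell by 1.52 ± 0.45 on the log2 scale (SE; edgeR's quasi-likelihood test, adjusted p = 0.0334). Col6a3 had 4.30, 1.57, 3.55 and 4.09 CPM in Glut1 transgenic Tnnt2low cells, against 35.1, 7.12, 27.0 and 8.07 CPM in Tnnt2high cells, and fell by 2.52 ± 0.54 on the log2 scale (SE; edgeR's quasi-likelihood test, adjusted p = 0.00709). Col6a3 did not overlap between the populations, and Col6a1 overlapped through replicate 4 of Tnnt2high.
Col6a6 had 2.10, 1.01, 0.127 and 0.128 CPM in Glut1 transgenic Tnnt2low cells, against 10.7, 1.92, 5.70 and 2.37 CPM in Tnnt2high cells, and fell by 2.56 ± 0.82 on the log2 scale (SE; edgeR's quasi-likelihood test, adjusted p = 0.0450). Its reads ranged from 1 to 53 per library.
Col6a2 had 112, 108, 106.3 and 91.6 CPM in Glut1 transgenic Tnnt2low cells, against 143, 99.4, 113 and 92.1 CPM in Tnnt2high cells. The populations overlapped, and the log2 fold change was -0.10 ± 0.14 (SE; edgeR's quasi-likelihood test, adjusted p = 0.695).

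In WT cells Col6a1 had 12.2 and 11.96 CPM in Tnnt2low cells, against 37.5 and 9.42 CPM in Tnnt2high cells. Col6a3 had 5.81 and 5.38 CPM in WT Tnnt2low cells, against 18.5 and 5.52 CPM in WT Tnnt2high cells. Replicate 1 of WT Tnnt2high was the high library for both, and replicate 2 was close to the Tnnt2low libraries. Col6a2 had 104.4 and 101.4 CPM in WT Tnnt2low cells, against 106.5 and 123 CPM in WT Tnnt2high cells, and Col6a6 had 3.87 and 1.496 CPM, against 6.93 and 3.37 CPM.

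The ratio of Col6a2 to Col6a1, per kilobase, was 8.57, 6.94, 5.84 and 7.29 in Glut1 transgenic Tnnt2low libraries, against 1.77, 3.75, 2.39 and 5.88 in Tnnt2high libraries. In WT cells it was 5.83 and 5.78 in Tnnt2low libraries, against 1.94 and 8.93 in Tnnt2high libraries. Col6a2 therefore stood above Col6a1 in all 12 libraries, and the gap was smallest in the libraries with the most fibrillar reads. No exon of Col6a2 (chr10:76595762-76623630) overlaps another gene in GENCODE vM21, and 0.241% of its 30-base words occur in transcripts of other genes.

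**Figure D4:**
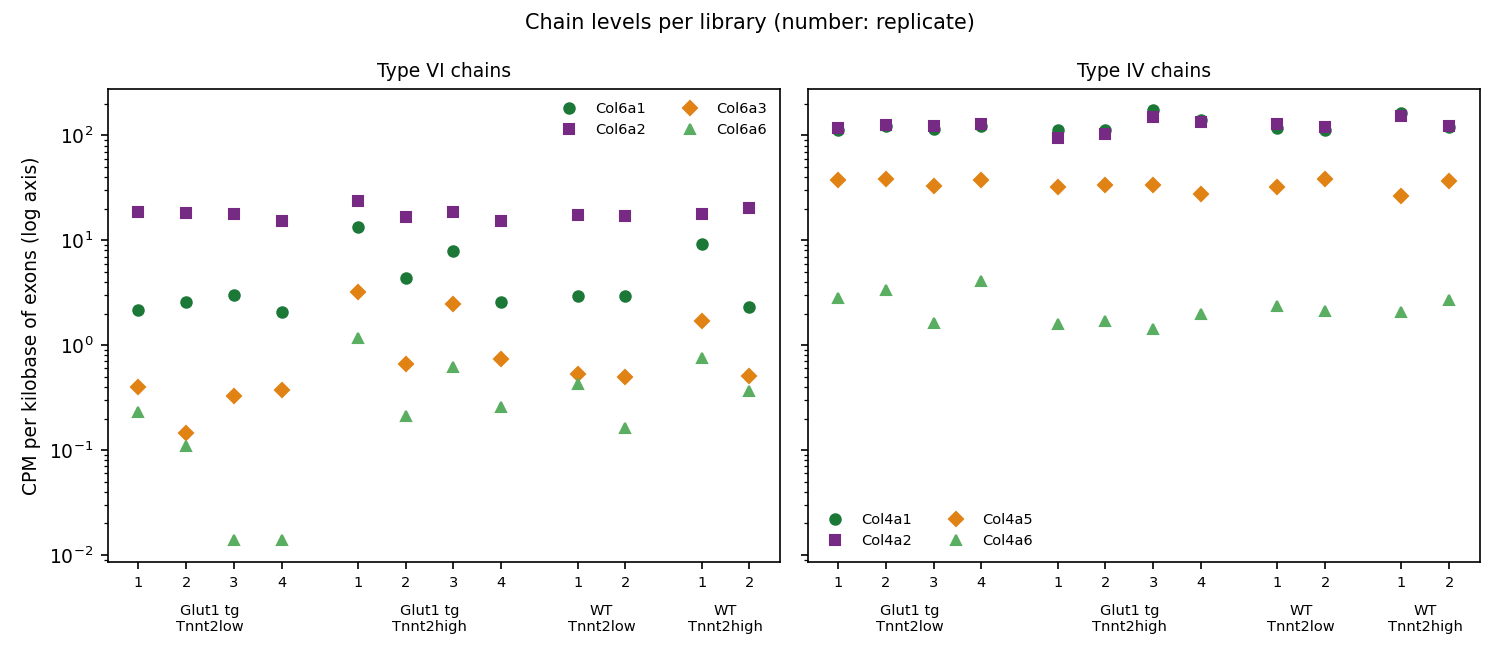
Level per kilobase of exons (log axis) of 4 type VI chains on the left and 4 type IV chains on the right in each library, grouped by genotype and population. Col6a2 and the type IV chains Col4a1, Col4a2 and Col4a5 stay nearly level over the 12 libraries, while Col6a1, Col6a3 and Col6a6 peak in Glut1 transgenic Tnnt2high replicate 1.

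The type IV chains Col4a1 (chr8:11198423-11312826) and Col4a2 (chr8:11312805-11449287) build the basement membrane network found in nearly all tissues. Col4a1 had 751, 811, 756 and 821 CPM in Glut1 transgenic Tnnt2low cells, against 738, 737, 1144 and 928 CPM in Tnnt2high cells. The populations overlapped, and the log2 fold change was -0.18 ± 0.14 (SE; edgeR's quasi-likelihood test, adjusted p = 0.431). Col4a2 had 754, 814, 785 and 823 CPM in Glut1 transgenic Tnnt2low cells, against 608, 672, 959 and 865 CPM in Tnnt2high cells, with a log2 fold change of 0.03 ± 0.13 (SE; edgeR's quasi-likelihood test, adjusted p = 0.899). In WT Tnnt2low cells Col4a1 had 777 and 753 CPM, against 1074 and 788 CPM in WT Tnnt2high cells. Col4a2 had 827 and 769.5 CPM in WT Tnnt2low cells, against 983 and 798 CPM in WT Tnnt2high cells. Over the 12 libraries the highest level was 1.55 times the lowest for Col4a1 and 1.62 times for Col4a2, beside 27.3 times for Col3a1 and 50.7 times for Col15a1.

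The ratio of Col4a1 to Col4a2, per kilobase, was 0.971, 0.971, 0.939 and 0.973 in Glut1 transgenic Tnnt2low libraries, against 1.18, 1.07, 1.16 and 1.05 in Tnnt2high libraries. The populations did not overlap in this ratio although neither chain passed the test. In WT cells it was 0.916 and 0.955 in Tnnt2low libraries, against 1.07 and 0.963 in Tnnt2high libraries. The exons of the 2 genes overlap by 22 bases at their starts, and whether the counting used strand is not given in the sources used here.

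Col4a5 and Col4a6, the X-linked pair, differed in level and in order. Col4a5 had 245, 250, 215 and 244 CPM in Glut1 transgenic Tnnt2low cells, against 210, 218, 219 and 182 CPM in Tnnt2high cells, with a log2 fold change of 0.20 ± 0.13 (SE; edgeR's quasi-likelihood test, adjusted p = 0.304). WT cells had 211 and 251 CPM in Tnnt2low cells, against 171 and 239 CPM in Tnnt2high cells.
Col4a6 had 18.9, 22.3, 10.8 and 27.0 CPM in Glut1 transgenic Tnnt2low cells, against 10.7, 11.2, 9.42 and 13.1 CPM in Tnnt2high cells. It was higher in Tnnt2low cells of all 4 hearts although replicate 3 of Tnnt2low lay within the Tnnt2high range, and the log2 fold change was 0.83 ± 0.27 (SE; edgeR's quasi-likelihood test, adjusted p = 0.0450). In WT cells it had 15.6 and 14.2 CPM in Tnnt2low cells, against 13.9 and 17.9 CPM in Tnnt2high cells. With an offset for gene length and GC content its log2 fold change was 0.57 (adjusted p = 0.224, edgeR's quasi-likelihood test). Col4a6 also did not pass with only the groups compared, or with this offset and the replicate block together. It still passed without Glut1 transgenic Tnnt2low replicate 3 or without WT Tnnt2high replicate 1. With any other library left out it did not pass. Col4a5 was 9.20 to 23.6 times as high as Col4a6 per kilobase over the 12 libraries.
Col4a3 and Col4a4, the pair known from the kidney filter, had mean levels of 1.37 and 3.95 CPM over the 12 libraries and did not pass the test. Of the exon bases of Col4a3, 5.65% overlap a gene on the other strand, so its level is uncertain. Of its 30-base words, 5.13% occur in transcripts of other genes on either strand. This count includes the overlapping gene, so the shares are not separate.

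The multiplexins Col15a1 and Col18a1, the source of endostatin, are made by vessel cells among others. Col15a1 had 1.82, 1.46, 4.06 and 14.7 CPM in Glut1 transgenic Tnnt2low cells, against 40.6, 17.5, 42.9 and 23.5 CPM in Tnnt2high cells. The populations did not overlap, and the log2 fold change was -2.52 ± 0.69 (SE; edgeR's quasi-likelihood test, adjusted p = 0.0234). The WT values were 13.3 and 6.73 CPM in Tnnt2low cells, against 73.9 and 9.16 CPM in Tnnt2high cells. Col18a1 had 4.78, 6.74, 9.77 and 10.6 CPM in Glut1 transgenic Tnnt2low cells, against 5.45, 14.8, 45.4 and 33.0 CPM in Tnnt2high cells. It was lower in Tnnt2low cells of all 4 hearts, the ranges overlapped, and the test was not passed (log2 fold change -1.63 ± 0.62 SE, adjusted p = 0.0889, edgeR's quasi-likelihood test). WT hearts gave 24.9 and 7.03 CPM in Tnnt2low cells, against 40.9 and 6.19 CPM in Tnnt2high cells.

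The chains fell into different orders over single libraries. Glut1 transgenic Tnnt2high replicate 1 was the highest library for 15 of the 29 tested chains, among them Col1a1, Col3a1, Col5a1, Col6a3, Col12a1 and Col14a1. WT Tnnt2high replicate 1 was the highest for 5 chains, among them Col15a1 and Col4a2, and Glut1 transgenic Tnnt2high replicate 3 for 4, among them Col4a1 and Col18a1. Without Glut1 transgenic Tnnt2high replicate 1, 6 chains passed in place of 13, all of them lower (Col1a1, Col1a2, Col3a1, Col5a1, Col6a3 and, in addition, Col18a1). Over all genes, 1237 passed in that fit, in place of 2052. Of the 13 chains, 9 also passed with an offset for gene length and GC content, and Col11a1, Col6a1, Col6a6 and Col4a6 did not (adjusted p = 0.0522, 0.0538, 0.0575 and 0.224, edgeR's quasi-likelihood test). Without Tnnt2low replicate 1, 2 or 3 of the Glut1 transgenic hearts, 7 passed in each case. Over all genes, these fits called 1249, 1361 and 1483, and the fit with the offset called 624. Col1a1, Col1a2, Col3a1, Col5a1 and Col6a3 passed with each of the 12 libraries left out in turn and under every other alternative run.

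The fibrillar sum stood beside the markers of fibroblasts in these libraries. Of 12 fibroblast markers, 11 were tested and 6 fell in Glut1 transgenic Tnnt2low cells, beside 8.33% of all tested genes, and the median log2 fold change was -2.65. Dcn, a proteoglycan of fibril surfaces, had 1.34, 1.68, 2.79 and 2.17 CPM in Tnnt2low cells, against 21.8, 12.6, 8.93 and 6.64 CPM in Tnnt2high cells (log2 fold change -2.65 ± 0.52 SE, adjusted p = 0.00463, edgeR's quasi-likelihood test). Postn, a matrix protein of cardiac fibroblasts and valve cells, had 8.80, 7.18, 12.9 and 20.2 CPM in Tnnt2low cells, against 127.5, 28.8, 58.5 and 28.7 CPM in Tnnt2high cells (log2 fold change -2.32 ± 0.49 SE, adjusted p = 0.00660, edgeR's quasi-likelihood test). Mfap4 also fell (adjusted p = 0.0425, edgeR's quasi-likelihood test), although it did not pass with the replicate block (adjusted p = 0.0708, same test). Mfap5, counted among the 6, had 0 reads in all 4 Tnnt2low libraries and at most 23 in any library. It passed the low-count filter only through Glut1 transgenic Tnnt2high libraries, where it was high. Its test (adjusted p = 0.0195, edgeR's quasi-likelihood test) therefore adds no support. DESeq2 called 5 of the 12 markers lower and gave 5 no adjusted p.
The summed fibroblast markers were 32.2 to 45.3 CPM in Glut1 transgenic Tnnt2low libraries, against 66.4 to 234 CPM in Tnnt2high libraries, and 55.2 and 70.3 CPM in WT Tnnt2low libraries, against 53.9 and 112 CPM in WT Tnnt2high libraries. Glut1 transgenic Tnnt2high replicate 1 was highest for both the fibrillar and the fibroblast marker sum. Of the defining markers, Pdgfra had 0 reads in 1 library and Tcf21 in 5 of 12. The part of fibroblast RNA in the levels of the fibrillar chains was not tested.

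The multiplexins stood beside the markers of endothelial cells. All 12 endothelial markers were tested and all had a negative log2 fold change in Glut1 transgenic Tnnt2low cells. Their median was -2.20, beside -0.01 for all tested genes. None passed edgeR's quasi-likelihood test, beside 8.33% of all tested genes that fell, and DESeq2 called 1. At an unadjusted p under 0.05 there were 7 lower markers, beside 1880 lower genes among all 12252 tested. With the replicate block, the endothelial genes with the highest levels passed (Cdh5, adjusted p = 0.00485, Kdr, 0.00546, and Pecam1, 0.00253, edgeR's quasi-likelihood test). Pecam1, an adhesion protein of vessel walls, had 0.287, 2.25, 7.11 and 10.6 CPM in Tnnt2low cells, against 7.27, 20.8, 43.4 and 46.0 CPM in Tnnt2high cells. The summed markers were 10.5, 12.3, 58.4 and 97.6 CPM in Glut1 transgenic Tnnt2low libraries, against 39.6, 138, 311 and 287 CPM in Tnnt2high libraries, and 113 and 15.7 CPM in WT Tnnt2low libraries, against 417 and 19.7 CPM in WT Tnnt2high libraries. Replicate 1 of WT Tnnt2high was highest for both the endothelial markers and the multiplexins. Glut1 transgenic Tnnt2high replicate 1, the library highest in fibrillar chains, had the lowest endothelial sum of its group, and its ratio of multiplexins to endothelial markers was 1.16, beside 0.197 to 0.284 in the other 3 libraries of the group. The part of endothelial RNA in the levels of Col15a1 and Col18a1 was not tested.

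**Figure D5:**
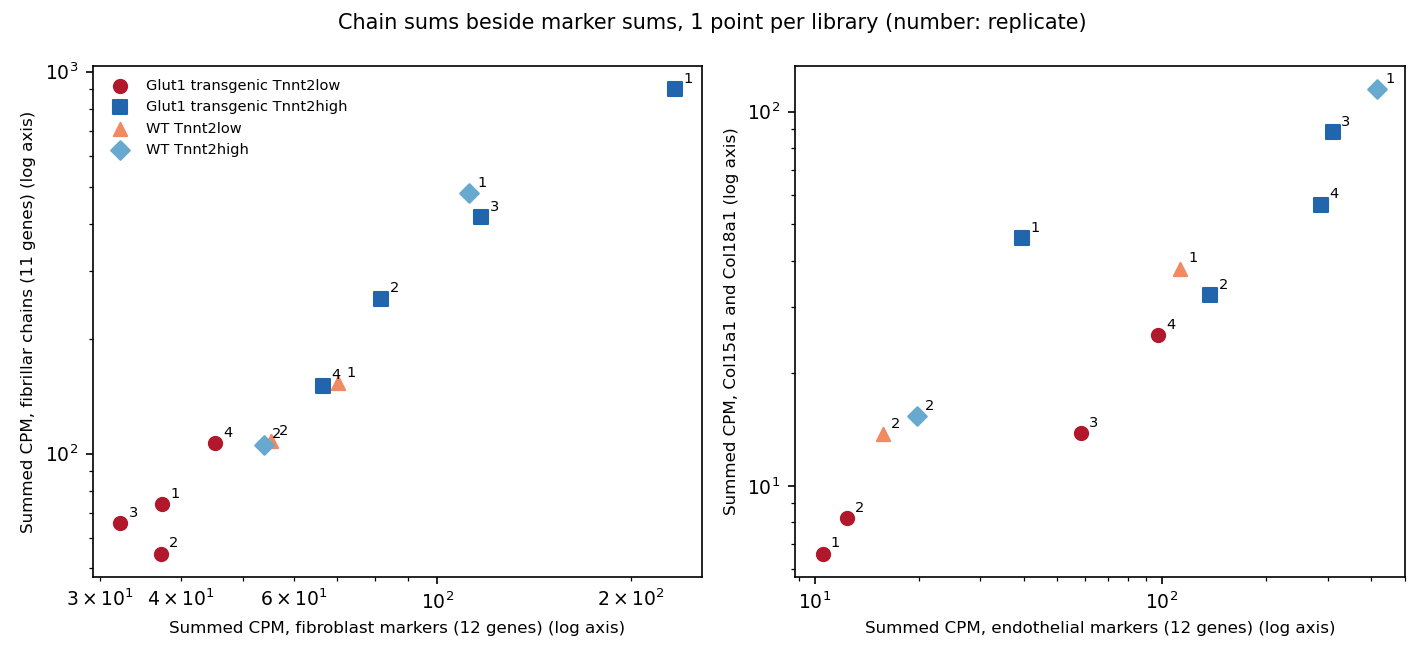
Summed CPM of fibrillar chains against fibroblast markers (left) and of Col15a1 and Col18a1 against endothelial markers (right), 1 point per library on log axes, with the replicate number beside it. Glut1 transgenic Tnnt2high replicate 1 is at the top right of the left plot with 900.4 and 234 CPM, and WT Tnnt2high replicate 1 at the top right of the right plot with 115 and 417 CPM.

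Of 8 mural cell markers, 6 were tested and 5 had a negative log2 fold change in Glut1 transgenic Tnnt2low cells. The median over the 6 was -2.23, beside -0.01 for all tested genes. The pericyte receptor genes Pdgfrb (log2 fold change -2.47 ± 0.70 SE, adjusted p = 0.0271) and Notch3 (-2.52 ± 0.64 SE, adjusted p = 0.0154) fell and Cspg4 rose (0.49 ± 0.14 SE, adjusted p = 0.0295, edgeR's quasi-likelihood test), beside 8.33% of all tested genes that fell and 8.42% that rose. The sum of the mural markers was 133 to 148 CPM in Tnnt2low libraries, against 114 to 156 CPM in Tnnt2high libraries. Most of this sum came from Cspg4, with a mean of 97.4 CPM in Tnnt2low cells, against 69.3 CPM in Tnnt2high cells, and Mcam, with a mean of 36.5 CPM in Tnnt2low cells, against 38.5 CPM in Tnnt2high cells, so the sum did not follow the other mural markers. The part of mural cell RNA in the levels of the chains was not tested. Of 8 epicardial markers 3 were tested, with a median log2 fold change of -0.07, and Aldh1a2 fell (-2.93 ± 0.82 SE, adjusted p = 0.0252, edgeR's quasi-likelihood test). Leukocyte markers summed to at most 11.7 CPM in any library, and the pan-leukocyte gene Ptprc had 0 reads in 9 libraries and at most 4 in any. Schwann cell markers summed to 7.69 to 24.2 CPM, mostly from Erbb3, and none passed edgeR's quasi-likelihood test, with 1 at an unadjusted p under 0.05 and 0 called by DESeq2.

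Of the genes that fold, process, bind and degrade collagen, 1 gene of each list fell in Glut1 transgenic Tnnt2low cells, beside 8.33% of all tested genes. In the lists of folding, receptor and turnover genes 1 gene each also rose, beside 8.42% of all tested genes. In that of processing genes 0 rose and DESeq2 called 0 higher. At an unadjusted p under 0.05, 1 processing gene was higher, beside 1918 higher genes among all 12252 tested. Of 17 folding and export genes, 16 were tested. Ppib, a prolyl isomerase of the endoplasmic reticulum, fell in Glut1 transgenic Tnnt2low cells (-0.57 ± 0.18 SE, adjusted p = 0.0392), and Mia3, which helps to export procollagen, rose (0.47 ± 0.14 SE, adjusted p = 0.0351, edgeR's quasi-likelihood test). Of 14 processing and cross-linking genes, 9 were tested and Adamts2, a procollagen peptidase, fell (-2.50 ± 0.72 SE, adjusted p = 0.0300, edgeR's quasi-likelihood test). Of 8 receptors, 6 were tested. Ddr2, a receptor for fibrillar collagen, fell to 0.382, 0.337, 0 and 0 CPM in Tnnt2low cells, against 6.46, 0.821, 1.74 and 1.19 CPM in Tnnt2high cells (adjusted p = 0.0321, edgeR's quasi-likelihood test). Ddr2 passed the low-count filter only through Glut1 transgenic Tnnt2high libraries, where it was high, so its test adds no support. Itgb1, the shared subunit of collagen-binding integrins, rose (0.36 ± 0.11 SE, adjusted p = 0.0450, edgeR's quasi-likelihood test).
Of 12 turnover genes, 7 were tested. The gelatinase Mmp2 had 1.15, 2.58, 2.28 and 0.767 CPM in Glut1 transgenic Tnnt2low cells, against 22.2, 5.48, 20.1 and 10.7 CPM in Tnnt2high cells (log2 fold change -3.10 ± 0.59 SE, adjusted p = 0.00421), and Timp3, an inhibitor of such enzymes bound to matrix, rose (0.58 ± 0.17 SE, adjusted p = 0.0348, edgeR's quasi-likelihood test).
With the offset for length and GC content, Ppib, Mia3, Ddr2 and Timp3 did not pass (adjusted p = 0.131, 0.0504, 0.0504 and 0.199, edgeR's quasi-likelihood test), nor did Cspg4 and Aldh1a2 (0.628 and 0.0695).

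The partners of type IV chains in the basement membrane were also split. Of 15 partner genes, 13 were tested, 3 rose and 1 fell in Glut1 transgenic Tnnt2low cells, beside 8.42% of all tested genes that rose and 8.33% that fell. The laminin chains Lamc1 (0.51 ± 0.11 SE, adjusted p = 0.00760), Lama5 (0.69 ± 0.16 SE, adjusted p = 0.00963) and Lama2, the main alpha chain around muscle cells (0.41 ± 0.12 SE, adjusted p = 0.0271, edgeR's quasi-likelihood test), were the 3 that rose. None of them passed with the offset for length and GC content (adjusted p = 0.15 for Lamc1, 0.185 for Lama5 and 0.986 for Lama2, edgeR's quasi-likelihood test), where the log2 fold change of Lama2 was -0.01. Nid1, which links laminin to type IV collagen, had 11.6, 9.20, 13.6 and 12.2 CPM in Tnnt2low cells, against 46.8, 31.2, 59.5 and 33.5 CPM in Tnnt2high cells, and fell by 1.88 ± 0.44 on the log2 scale (SE; adjusted p = 0.0109, edgeR's quasi-likelihood test). Nid1 thus fell, as did the called fibrillar chains and Col15a1, while Col4a1 and Col4a2 did not pass the test.

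Between the populations of WT hearts, no chain passed edgeR's quasi-likelihood test, as was the case for all other genes (0% of 12252 in either direction). Of the 29 tested chains, 1 had an unadjusted p under 0.05 (Col15a1, log2 fold change -2.04 ± 0.95 SE, adjusted p = 1, edgeR's quasi-likelihood test). Among all 12252 genes, 234 were lower and 147 higher at this limit. DESeq2 called 0 chains. The log2 fold change was negative for 24 of the 29, and the median was -0.67, beside -0.001 for all tested genes. The summed fibrillar level was 153 and 108 CPM in WT Tnnt2low cells, against 480.5 and 105.6 CPM in WT Tnnt2high cells, and the type IV level 1840 and 1793 CPM, against 2249 and 1850 CPM. Within replicate 1 the Tnnt2low fibrillar level was 0.318 times the Tnnt2high level and within replicate 2 it was 1.02 times. Replicate 1 was thus lower in Tnnt2low cells, while replicate 2 was nearly level. The heart number does not tell the WT replicates apart, so this pairing rests on the replicate number only. The difference in the log2 ratio of fibrillar to type IV chains was -0.65 over both replicates and between -1.60 and 0.31 with 1 of the 4 WT libraries left out.

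Whether the difference between the populations itself differed between Glut1 transgenic and WT hearts was tested as an interaction. No chain passed edgeR's quasi-likelihood test (0% of all tested genes in either direction), and DESeq2 called 0. At an unadjusted p under 0.05 there were 0 chains, beside 270 lower and 284 higher genes among all tested genes. The interaction of Col1a1 was -1.65 ± 0.89 and that of Col3a1 -1.29 ± 0.93 on the log2 scale (SE, adjusted p = 0.961 for both, edgeR's quasi-likelihood test). The median over the 29 tested chains was -1.05. A larger difference in Glut1 transgenic hearts was therefore not shown for any chain.

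Between genotypes, no chain differed in Tnnt2low cells of Glut1 transgenic and WT hearts by edgeR's quasi-likelihood test. Beside this, 0.00816% of all genes were called lower and 0% higher. DESeq2 called 0 chains. At an unadjusted p under 0.05 there were 0 chains, beside 142 lower and 114 higher genes among all tested genes. The summed fibrillar level was 54.7 to 106.7 CPM in Glut1 transgenic Tnnt2low cells, against 152.8 and 107.7 CPM in WT Tnnt2low cells, so the genotypes did not overlap in the sum, although the highest Glut1 transgenic library and the lowest WT library lay close together. Col1a1 had a log2 fold change of -1.11 ± 0.62 and Col5a1 of -1.19 ± 0.64 (SE, adjusted p = 1 for both, edgeR's quasi-likelihood test). The summed type IV level was 1771 to 1917 CPM in Glut1 transgenic cells, against 1793 and 1840 CPM in WT cells, with a log2 fold change of 0.04 ± 0.17 for Col4a1 and -0.01 ± 0.16 for Col4a2 (SE).

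Tnnt2high cells of Glut1 transgenic hearts did not differ from those of WT hearts in any chain by edgeR's quasi-likelihood test either (0% of all tested genes in either direction). At an unadjusted p under 0.05 there were 2 lower chains (Col11a2 and Col4a4) and 1 higher (Col26a1, with 0 reads in both WT Tnnt2high libraries). Among all 12252 genes tested, 384 were lower and 266 higher at this limit. DESeq2 called 0 chains. The summed fibrillar level was 151 to 900.4 CPM in Glut1 transgenic Tnnt2high cells, against 105.6 and 480.5 CPM in WT Tnnt2high cells. The spread within each genotype was thus wider than the difference between them. Both comparisons of genotype share libraries with the comparisons of population above.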

How the data were processed

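RNA of the sorted cells was sequenced by the authors, who per their methods and processing notes checked reads with FastQC, aligned them to mm10 with HISAT2 and counted them per gene with HTSeq (tool versions, strand and counting mode: not given in the sources used here). Values, as deposited, are raw counts per gene. The 5 totals that name no gene were left out. Those for reads outside exons, ambiguous reads and reads with several alignments held 63.561% to 83.797% of their sum with the reads in genes of a library. Counts were fitted in 1 model over the 12 libraries with edgeR 4.0.16 (R 4.3.3; filterByExpr, TMM normalisation, quasi-likelihood test, Benjamini-Hochberg adjustment over 12252 genes, threshold 0.05), and DESeq2 1.42.0 was an alternative. SE is the fold change divided by the square root of the F statistic. TMM factors were 0.899 to 1.08. In simulated Glut1 transgenic populations (12252 genes), 61% of genes changed 2-fold and 84% of those changed 4-fold were recovered. The simulation used the trend of spread over all genes and no difference between hearts. Its shares need not hold for chains that vary widely, such as Col1a1 (SD 76.2% of the mean in Glut1 transgenic Tnnt2high cells). They do not cover the WT comparisons. Values are given for the 18 chains called in a comparison or averaging at least 10 CPM. Of each other list, the called genes (at most 4) or otherwise the 3 with the highest level were eligible to be named, and Ptprc, Pdgfra, Tcf21, Mcam and Col11a2 were named after their values were seen. The chains and lists were chosen with earlier results of these data known. GENCODE vM21 matched 24055 of 24421 symbols (98.5%), and 173 of the 174 genes on the lists were in the files. Same-numbered Glut1 transgenic populations came from the same heart by their labels, and the Pearson r of their deviations was 0.107 to 0.226. Populations of unlike number had r of -0.151 to 0.12, so the ranges overlapped. Deviations from a group mean add up to 0, which ties these values to each other, so they are weak evidence of a pairing. All WT libraries carried the same heart number, so the heart number did not pair them. The WT value of 0.271 had to mirror the -0.271 of the other pairing, since each WT group held 2 libraries. It therefore could not show a pairing. The replicate block, which pairs libraries by replicate number, was an alternative. The others were DESeq2 size factors, no filter, a robust fit, only the groups compared, an offset for length and GC content (loess span 0.3), a fold minimum of 1.5 and each library left out in turn. Repeats in the collagen proteins were not counted here. Figures were drawn with matplotlib 3.10.9. Read numbers and their floors cover counting error only.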

Additional observations from a re-analysis of the deposited data

Results flagged for a closer look

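Of the levels of chains within the groups of 4 libraries, 46 were checked for a library far from the others, and chance would give 2.3 such cases (1 in 20). In 1 of them a library stood apart. Col4a5, the X-linked type IV chain, had 215.2 CPM in Glut1 transgenic Tnnt2low replicate 3, against 244.2 to 249.7 CPM in the other 3 libraries of that group, a gap of 0.839 of the range of the group (limit 0.829).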

How the results depend on the processing

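Between the Glut1 transgenic populations, 9 to 15 chains passed under 9 alternatives, beside 13, and 6 to 13 with 1 library left out. With the replicate block 12 passed, and with length and GC content as an offset 9. Without Glut1 transgenic Tnnt2high replicate 1, 6 passed, and 7 without Tnnt2low replicate 1, 2 or 3. Calls over all genes moved too. They were 2052 in the main fit, 2337 with the block and 624 with the offset. Without Tnnt2high replicate 1 they were 1237, and without Tnnt2low replicate 1, 2 or 3 they were 1249, 1361 and 1483. Col1a1, Col1a2, Col3a1, Col5a1 and Col6a3 passed throughout, and no type IV chain was called lower. The block changed the calls of Col11a1 (-2.40), Col12a1 (-1.83) and Col18a1 (-1.36) and of no other chain. In the other 4 comparisons 0 chains passed under every alternative run. The difference in the log2 ratio of fibrillar to type IV chains was -2.23 between Glut1 transgenic populations (-2.66 to -1.69 with 1 library left out), -0.65 between WT populations (-1.60 to 0.31), -0.83 between genotypes in Tnnt2low cells (-1.07 to -0.60) and 0.75 in Tnnt2high cells (-0.20 to 1.71). With the mean log2 CPM per class, the value in Tnnt2low cells was -0.41 in place of -0.83; the cause was not tested. The 15 chains below the filter had too few reads to be tested.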
